A study of Mus musculus with 11 samples.

Results

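The Krüppel-like factors described here are 10 mouse genes, Klf2, Klf3, Klf4, Klf6, Klf7, Klf9, Klf10, Klf11, Klf12 and Klf13. They were taken by gene symbol from a table of 57186 gene entries, in which 18 entries carry a Klf symbol. Their transcripts were measured by bulk RNA sequencing of cells sorted from untreated 14-day-old mice, in DN3 cells of the thymus (n = 3), in ZsGreen-positive ILC2 of the lung (n = 3) and in ZsGreen-negative ILC2 of the lung (n = 5). DN3 cells are CD4- CD8- T cell precursors at the stage at which the beta chain of the T cell receptor is rearranged, and ILC2 are innate lymphocytes of tissues that release type 2 cytokines without an antigen receptor. All 3 groups, the ZsGreen-negative one included, carry the genotype Cd3giCreRosa26stopZsGreen, which by its name joins a Cre recombinase driven by Cd3g to a ZsGreen reporter in the Rosa26 locus behind a stop cassette. A reporter of this kind marks a cell once Cre has acted in it or in its ancestors, so ZsGreen does not show present Cd3g transcription. The labels do not say whether libraries came from separate animals or from pools, nor give the ZsGreen status of the DN3 cells.

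Krüppel-like factors are DNA-binding proteins with zinc fingers at the C-terminus that bind GC-rich and CACCC sequences, often the same ones as the related Sp factors, so that paralogs in 1 cell can compete for a site. They fall into 3 subgroups by the partners of their N-terminal parts. Klf3, Klf8 and Klf12 bind the corepressor CtBP and mostly repress; Klf2, Klf4, Klf5, Klf6 and Klf7 mostly activate; Klf9, Klf10, Klf11, Klf13 and Klf16 can recruit the corepressor Sin3a. In lymphocytes Klf2 is known for keeping resting T cells quiescent and for switching on genes of exit from the thymus and of homing to lymph nodes, and Klf4 for restraining the cell cycle.

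Library totals were between 5951494 and 7745062 counts in DN3, between 5762491 and 17627469 in ZsGreen-positive ILC2 and between 4495260 and 14424313 in ZsGreen-negative ILC2. All DN3 libraries carry the batch date 17 October 2024. Among lung libraries, ZsGreen-positive replicate 3 and ZsGreen-negative replicate 5 carry 8 April 2025 and all others 2 September 2024, so wherever DN3 are compared with lung cells, the cell type, the tissue and the batch cannot be told apart. Levels are in CPM, counts relative to the library total, with TMM scaling over the 11 libraries, and no length enters them unless stated. Most defining transcripts followed the sort labels. By the test given below, all 10 ILC2 markers were lower in DN3 than in either lung group. Of all tested genes 41.2% and 40.3% were. Of 10 DN3 markers, 9 were higher than in ZsGreen-negative and 10 than in ZsGreen-positive ILC2, where 35.5% and 34.8% of genes were. The exception, Il2ra, averaged 1110 CPM in DN3 and 963.3 CPM in ZsGreen-negative ILC2. Cd3e averaged 321.5 CPM in DN3, 22.9 CPM in ZsGreen-positive and 1.60 CPM in ZsGreen-negative ILC2. Il1rl1, the IL-33 receptor of ILC2, was at 0 counts in the DN3 libraries, and Ptcra, the pre-T cell receptor alpha chain, was at 0 counts in the lung libraries. Rag1, a subunit of the recombinase, lay between 1220 and 1314 CPM in DN3. Cd3g, the gene named in the reporter, was at 411 to 433 CPM in DN3, 135.5 to 168.5 CPM in ZsGreen-positive ILC2 and 29.7 to 40.4 CPM in ZsGreen-negative ILC2.

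The leading paralog differed between DN3 and lung ILC2. Per kilobase of exon, Klf3 and Klf13 led in DN3, and Klf4 led in both lung ILC2 groups with Klf13 after it. Dividing each CPM by the gene's merged exon length, the summed level of the 10 genes was 52.3 ± 1.91 CPM per kilobase in DN3, 310.9 ± 34.4 in ZsGreen-positive ILC2 and 403.4 ± 16.8 in ZsGreen-negative ILC2 (SD; n = 3, 3 and 5). The 3 DN3 libraries lay below every lung library, and the ZsGreen-positive libraries, at 282.9 to 349.3, lay below the ZsGreen-negative ones, at 373.9 to 416.1. Klf4 made up 0.42% ± 0.67 of that sum in DN3, 48.1% ± 1.60 in ZsGreen-positive ILC2 and 58.9% ± 2.44 in ZsGreen-negative ILC2. Its share in the ZsGreen-positive libraries, 46.6% to 49.7%, did not overlap that in the ZsGreen-negative libraries, 56.0% to 62.7%. Klf3 was 32.0% ± 1.36 of the sum in DN3, 3.73% ± 0.37 in ZsGreen-positive ILC2 and 3.92% ± 0.21 in ZsGreen-negative ILC2. Its own level differed far less between the groups, as given below.

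Klf13 was 31.2% ± 0.85 of the sum in DN3, 16.8% ± 2.18 in ZsGreen-positive ILC2 and 12.98% ± 0.45 in ZsGreen-negative ILC2. In DN3 its share, 30.5% to 32.2% over the libraries, overlapped that of Klf3, 31.0% to 33.5%. Both stood above Klf10, at 13.2% ± 0.35, and Klf6, at 12.2% ± 0.71. In ZsGreen-positive and ZsGreen-negative ILC2, Klf6 came next at 15.3% ± 1.77 and 11.2% ± 1.89, followed by Klf7 at 6.01% ± 0.36 and 5.20% ± 0.35. Klf12 was last in all 3 groups, at 0.04%, 0.31% and 0.16% in DN3, ZsGreen-positive and ZsGreen-negative ILC2. The exon lengths come from GENCODE M21 on GRCm38, which is not the build of the counts, and transcripts actually used are unknown. With the longest transcript in place of merged exons, Klf3 took 46.4% and Klf13 24.8% in DN3, and Klf4 took 44.0% in ZsGreen-positive and 54.2% in ZsGreen-negative ILC2, so the leading paralog of each group was the same, and in DN3 Klf3 then stood above Klf13. In plain CPM, which favours long transcripts, Klf4 took 31.3% in ZsGreen-positive and 40.6% in ZsGreen-negative ILC2, and in ZsGreen-positive replicate 3 Klf13, at 30.6%, stood above Klf4, at 29.97%. These shares are descriptions with no test; a share moves whenever any other member does.

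**Figure D1:**
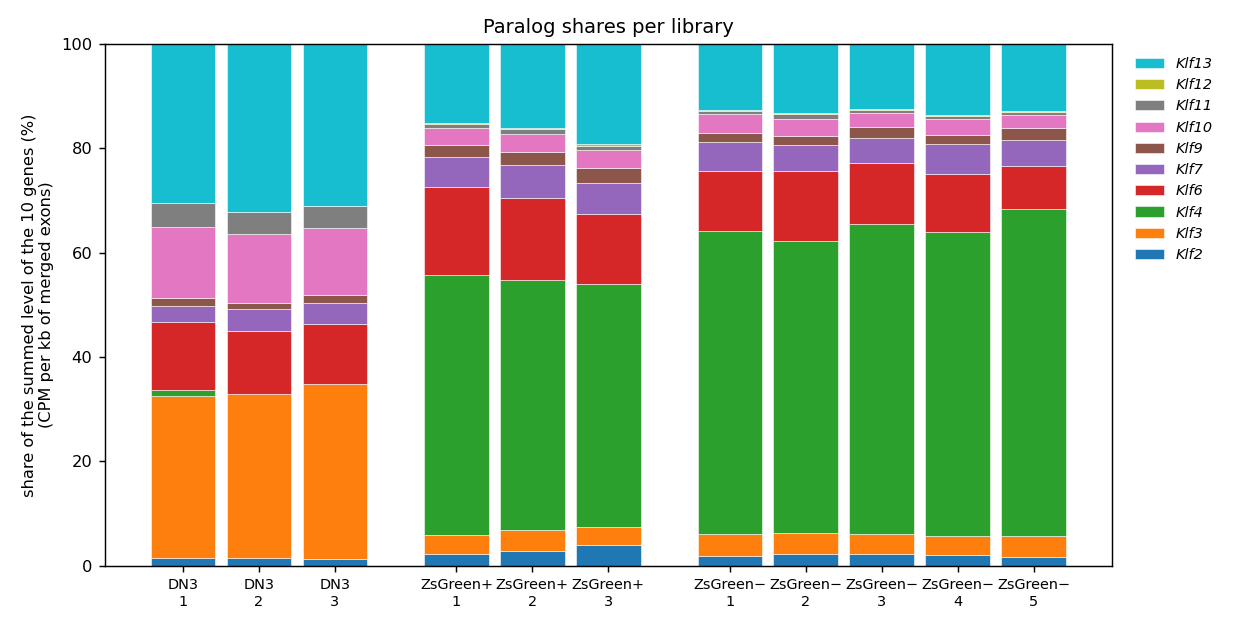
Stacked bars give, for each library, the share (%) of each of the 10 genes in their summed level in CPM per kilobase of merged exons, with DN3 libraries at the left, then ZsGreen+ and ZsGreen− lung ILC2. Klf3 and Klf13 fill most of each DN3 bar, and Klf4 is the widest band in every lung bar, at 46.6% to 49.7% in ZsGreen+ and 56.0% to 62.7% in ZsGreen− libraries.

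DN3 had less of 8 of the 10 factors than ZsGreen-negative ILC2, and Klf3 and Klf11 did not pass the test. Klf4, Klf12, Klf9, Klf7, Klf2, Klf6, Klf13 and Klf10 fell, in that order of size, with log2 fold changes from -10.19 to -0.81. Set against ZsGreen-positive ILC2, the same 8 fell in DN3, Klf3 was higher and Klf11 again did not pass. All values here are from a single edgeR quasi-likelihood fit of the 11 libraries with Benjamini-Hochberg (BH) adjustment over 15132 genes and a threshold of 0.05. No member rose in DN3 over ZsGreen-negative ILC2 (0 at an unadjusted p under 0.05, 0 with DESeq2 and 0 with limma voom), where 76.7% of all tested genes were called in either direction, 41.2% lower and 35.5% higher. In DN3 against ZsGreen-positive ILC2, 75.1% of tested genes were called, 40.3% lower and 34.8% higher, and 1 member rose and 8 fell. The median log2 fold change over the 10 members was -3.11 against ZsGreen-negative and -3.07 against ZsGreen-positive ILC2, beside -0.10 and -0.08 over all tested genes. Libraries were separate for 8 members against ZsGreen-negative and 9 against ZsGreen-positive ILC2, as they were for 73.9% and 78.2% of all tested genes. Both comparisons use the same DN3 libraries. All 10 members passed the filter on low counts, Klf4, Klf12 and Klf2 through the lung libraries in which they were high. In bulk RNA, fewer cells with a transcript and less of it per cell cannot be told apart.

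**Figure D2:**
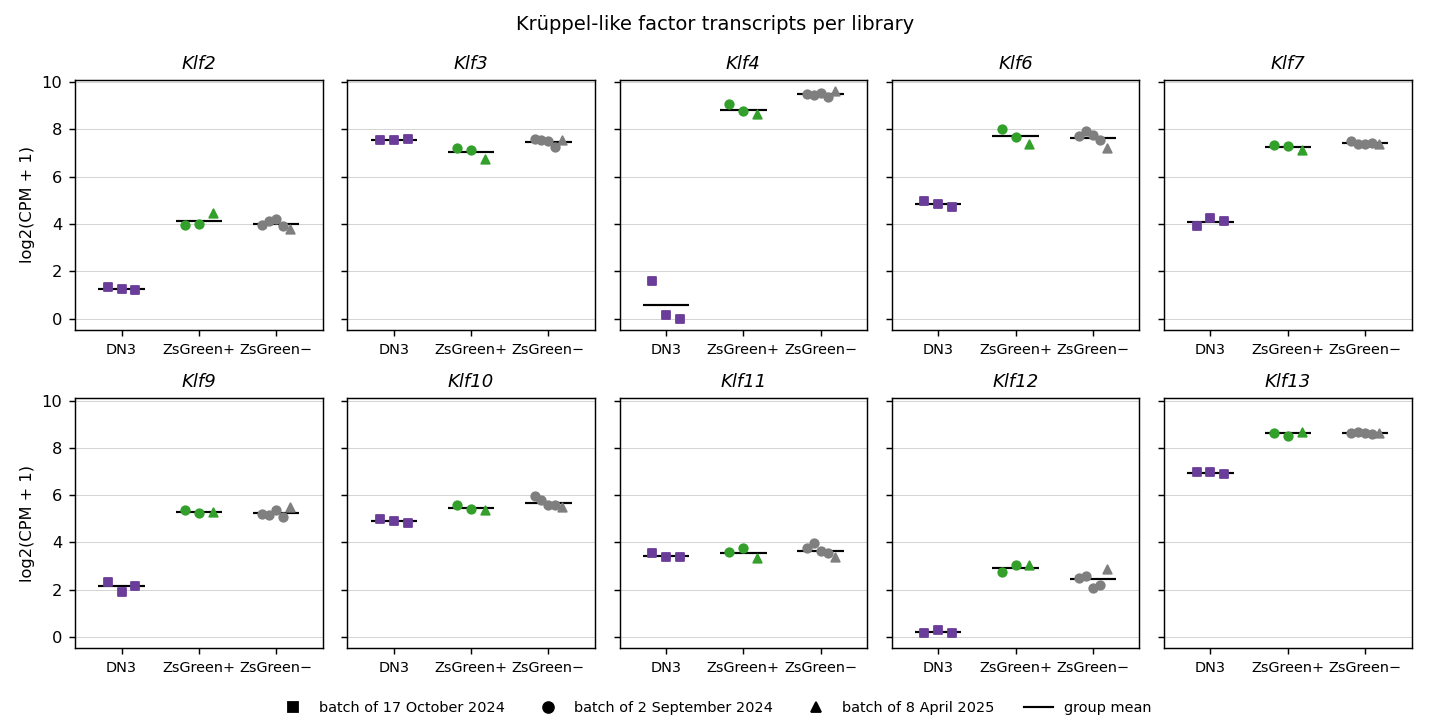
Each panel plots 1 gene as log2(CPM + 1) on the y axis against group on the x axis, 1 symbol per library with its shape giving the batch date, and a line at the mean of the log values. DN3 libraries lie below every lung library for 8 genes, Klf3 and Klf11 being the exceptions, and the ZsGreen+ libraries lie below the ZsGreen− ones for Klf3, Klf4 and Klf7.

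Klf4, a reprogramming factor and brake on proliferation, showed the widest gap. It had 1.97, 0.11 and 0 CPM in the DN3 libraries, 529.8, 440.1 and 401.6 CPM in ZsGreen-positive ILC2, and 725.1, 697.0, 752.4, 664.6 and 784.0 CPM in ZsGreen-negative ILC2. The 3 groups did not overlap, and ZsGreen-positive ILC2 stood between the other two. Behind the DN3 values are 14, 1 and 0 counts, so nearly all DN3 signal came from replicate 1. Pooled counts gave a DN3 level 1225 times below that of ZsGreen-negative ILC2 (95% counting interval 742.3 to 2188) and 730.5 times lower than in ZsGreen-positive ILC2 (442.8 to 1306). The fitted log2 fold changes were -10.19 ± 0.39 (SE; edgeR, adjusted p = 1.59e-10) and -9.52 ± 0.40 (adjusted p = 4.33e-10), and without DN3 replicate 1 they were -13.31 and -12.64.

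Immediate early genes are induced within minutes of stimulation or of tissue dissociation, and Klf4 and Klf6 are often counted among them. The summed level of 22 such genes was also lower in DN3. It was 305.9 to 364.0 CPM in DN3, 28431 to 31432 CPM in ZsGreen-positive ILC2 and 29420 to 38215 CPM in ZsGreen-negative ILC2. Over ZsGreen-positive replicates 1, 2 and 3 the sum rose (28431, 29252 and 31432 CPM) while Klf4 fell. Among ZsGreen-negative libraries, replicate 5 was highest for both. The sum was 364.0 CPM in DN3 replicate 1, the library with 14 Klf4 counts, and 326.2 and 305.9 CPM in DN3 replicates 2 and 3. Fos, a subunit of AP-1, was at 6.91 CPM in DN3 replicate 1 against 0.32 and 0.35 CPM in the same 2 libraries. Of the 22 genes, 14 had their highest DN3 level in replicate 1 and the rest did not. Markers of lung endothelium, epithelium and stroma were also unequal: the summed level of 42 such genes was 258.0 to 291.7 CPM in DN3, where 16 of them were at 0 counts, 1370 to 3017 CPM in ZsGreen-positive ILC2 and 684.7 to 1545 CPM in ZsGreen-negative ILC2. Macrophage markers summed to 17.3 to 19.4, 112.4 to 237.7 and 56.4 to 148.9 CPM in the same groups. Of the 42 genes, Pecam1, Pdgfrb and Epcam had the largest DN3 means, 100.3, 62.5 and 35.9 CPM. These were called higher in DN3 than in either lung group. In both lung groups the largest means were those of Sftpc, Scgb1a1 and Calcrl. They were 560.7, 468.7 and 161.7 CPM in ZsGreen-positive and 229.9, 111.9 and 183.9 CPM in ZsGreen-negative ILC2. Against ZsGreen-negative ILC2, 13 of 16 endothelial, 11 of 14 epithelial and 8 of 9 tested stromal markers fell, where 41.2% of all tested genes did. The part of immediate early and marker genes in the differences between DN3 and lung was not tested.

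The bases before the Klf4 start site are shown beside those of Klf3 and Klf2, because these 3 genes span the range of the comparison, with the largest fall, no called fall and a fall of intermediate size. Sequences of 250 bases on the gene's strand were taken from RefSeq on GRCm38.p6, where 9 of the 10 members had an entry. They are Klf4 at chr4:55532476-55532725 on the minus strand, Klf3 at chr5:64803271-64803520 on the plus strand and Klf2 at chr8:72318812-72319061 on the plus strand, all written 5′ to 3′. Capitals mark matches on either strand, with adjoining or overlapping matches running together. The motifs are the GC box, with the letters GGGCGG, the CACCC box, named by its letters, the E-box, with the letters CACGTG, and the MEF2 motif.
Klf4: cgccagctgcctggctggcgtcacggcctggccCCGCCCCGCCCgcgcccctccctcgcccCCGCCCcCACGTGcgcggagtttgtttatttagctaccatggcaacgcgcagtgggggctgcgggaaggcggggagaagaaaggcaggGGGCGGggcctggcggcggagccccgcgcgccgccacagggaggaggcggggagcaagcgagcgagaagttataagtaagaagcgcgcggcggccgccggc
Klf3: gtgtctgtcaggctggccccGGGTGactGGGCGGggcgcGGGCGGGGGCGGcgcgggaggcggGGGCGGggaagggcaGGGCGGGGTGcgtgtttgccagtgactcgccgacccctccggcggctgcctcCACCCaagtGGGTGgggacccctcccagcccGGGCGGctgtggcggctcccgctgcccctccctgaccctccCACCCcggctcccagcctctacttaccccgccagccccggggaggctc
Klf2: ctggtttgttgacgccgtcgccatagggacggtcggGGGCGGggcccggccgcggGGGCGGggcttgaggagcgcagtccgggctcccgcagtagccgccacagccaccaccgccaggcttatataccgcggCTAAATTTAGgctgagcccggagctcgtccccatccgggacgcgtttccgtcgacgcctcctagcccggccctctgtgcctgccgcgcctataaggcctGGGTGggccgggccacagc
The Klf4 stretch is 74% G and C, holds 32 CpG dinucleotides, 4 GC boxes and 1 E-box 182 bases before the start, and has no CACCC box. That of Klf3 is 78.4% G and C and holds 5 CACCC boxes and 6 GC boxes. The Klf2 stretch is 71.2% G and C and was the only one of the 9 with a MEF2 motif, beside 1 CACCC box and 2 GC boxes. MEF2 proteins are known activators of Klf2 downstream of the kinase Mapk7. Over 32851 promoters of the same length in the table, 52% held a CACCC box, 32.7% a GC box, 6.02% an E-box and 2.92% a MEF2 motif. A SRF-type CArG motif, held by 1.47% of all promoters, and a CRE (TGACGTCA), held by 1.55%, were in none of the 9 windows. The CCAAT box was in the windows of Klf6, Klf9, Klf11 and Klf13 and in 33.8% of all promoters, and a FOXO motif (GTAAACA) in that of Klf9 and in 3.17% of all. Klf12 stood apart in base content, with 48% G and C, 6 CpG dinucleotides, 1 CACCC box and no GC box. These matches describe letters in 1 window per gene and no binding was measured.

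The other factors of the mostly activating subgroup were also lower in DN3. Klf2 had 1.55, 1.40 and 1.29 CPM in DN3, 14.3, 15.2 and 21.2 CPM in ZsGreen-positive ILC2, and 14.5, 16.3, 17.5, 14.1 and 12.8 CPM in ZsGreen-negative ILC2. DN3 lay wholly below the lung libraries, whose groups overlapped, and the log2 fold change was -3.39 ± 0.23 against ZsGreen-negative (edgeR, adjusted p = 1.27e-11) and -3.60 ± 0.24 against ZsGreen-positive ILC2 (adjusted p = 9.49e-12). Klf6, a ubiquitous factor also induced early after injury, had 30.7, 27.6 and 25.5 CPM in DN3, 259.5, 205.4 and 166.5 CPM in ZsGreen-positive ILC2, and 206.7, 239.4, 213.9, 184.0 and 146.9 CPM in ZsGreen-negative ILC2. Its DN3 level was 7.08-fold lower than the ZsGreen-negative one and 7.52-fold lower than the ZsGreen-positive one (edgeR, adjusted p = 2.85e-09 and 4.10e-09), with wide spread among the lung libraries, the 2 lowest of which, 146.9 and 166.5 CPM, were the 2 of April 2025. Klf7, first described as abundant in many tissues and needed for neuronal outgrowth, had 14.0, 18.1 and 16.2 CPM in DN3, 160.6, 155.6 and 138.3 CPM in ZsGreen-positive ILC2, and 181.0, 167.3, 164.2, 173.0 and 166.3 CPM in ZsGreen-negative ILC2. Its fall in DN3, with log2 fold changes of -3.40 ± 0.10 against ZsGreen-negative and -3.22 ± 0.11 against ZsGreen-positive ILC2, had the smallest adjusted p of the members (edgeR, 5.95e-18 and 3.76e-17).

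The CtBP-binding members went apart. Klf3, a repressor known for limiting B cell and fat cell programmes, had 188.6, 184.6 and 189.7 CPM in DN3, 145.9, 139.2 and 107.2 CPM in ZsGreen-positive ILC2, and 189.2, 185.4, 180.1, 150.7 and 185.3 CPM in ZsGreen-negative ILC2. DN3 fell within the range of the ZsGreen-negative libraries or just above it and lay above all ZsGreen-positive ones. Klf3 was higher in DN3 than in ZsGreen-positive ILC2, by 0.53 ± 0.11 on the log2 scale (edgeR, adjusted p = 0.000155), and the difference from ZsGreen-negative ILC2 was 0.07 ± 0.10 (adjusted p = 0.486). Klf12, a repressor first found at the AP-2 alpha gene, had 0.14, 0.22 and 0.12 CPM in DN3, from 1, 2 and 1 counts, 5.65, 7.21 and 7.22 CPM in ZsGreen-positive ILC2, and 4.66, 5.01, 3.17, 3.64 and 6.42 CPM in ZsGreen-negative ILC2. Pooled counts put it 31.5 times lower in DN3 than in ZsGreen-negative ILC2 (95% counting interval 12.1 to 116.8) and 42.7 times lower than in ZsGreen-positive ILC2 (16.4 to 158.3). Every DN3 library was below every lung library (edgeR, adjusted p = 3.91e-09 and 9.26e-10), at 4 DN3 counts in all.

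Among the Sin3a-binding members the falls were graded, and Klf11 did not pass. Klf9, a target of the glucocorticoid receptor, had 4.09, 2.80 and 3.51 CPM in DN3, 40.6, 36.8 and 38.4 CPM in ZsGreen-positive ILC2, and 35.5, 35.3, 40.4, 32.3 and 44.4 CPM in ZsGreen-negative ILC2. Its DN3 level was 10.99-fold lower than the ZsGreen-negative one and 11.2-fold lower than the ZsGreen-positive one (edgeR, adjusted p = 1.30e-14 and 3.07e-14). Klf13, which drives late Ccl5 expression in activated T cells, had 124.5, 126.8 and 117.5 CPM in DN3, 398.0, 362.7 and 410.4 CPM in ZsGreen-positive ILC2, and 389.0, 408.9, 392.8, 382.6 and 396.3 CPM in ZsGreen-negative ILC2. Libraries of each group lay close together, and Klf13 was 3.20-fold and 3.18-fold lower in DN3 than in ZsGreen-negative and ZsGreen-positive ILC2 (edgeR, adjusted p = 2.29e-14 and 1.09e-13).

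Klf10 and Klf11 are TGF-beta-inducible repressors of close relationship. Klf10 had 30.6, 29.0 and 27.0 CPM in DN3, 47.2, 42.1 and 40.2 CPM in ZsGreen-positive ILC2, and 60.6, 55.1, 47.0, 47.0 and 44.7 CPM in ZsGreen-negative ILC2. Its DN3 libraries lay below all lung libraries, with log2 fold changes of -0.81 ± 0.11 against ZsGreen-negative ILC2 (edgeR, adjusted p = 1.26e-06) and -0.58 ± 0.13 against ZsGreen-positive ILC2 (adjusted p = 0.000275), the smallest of the 8 falls. Klf11 had 10.7, 9.57 and 9.47 CPM in DN3, 11.01, 12.6 and 9.07 CPM in ZsGreen-positive ILC2, and 12.4, 14.9, 11.5, 10.6 and 9.44 CPM in ZsGreen-negative ILC2. All 3 groups overlapped, with differences of -0.23 ± 0.18 against ZsGreen-negative (edgeR, adjusted p = 0.240) and -0.11 ± 0.20 against ZsGreen-positive ILC2 (adjusted p = 0.621).

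**Figure D3:**
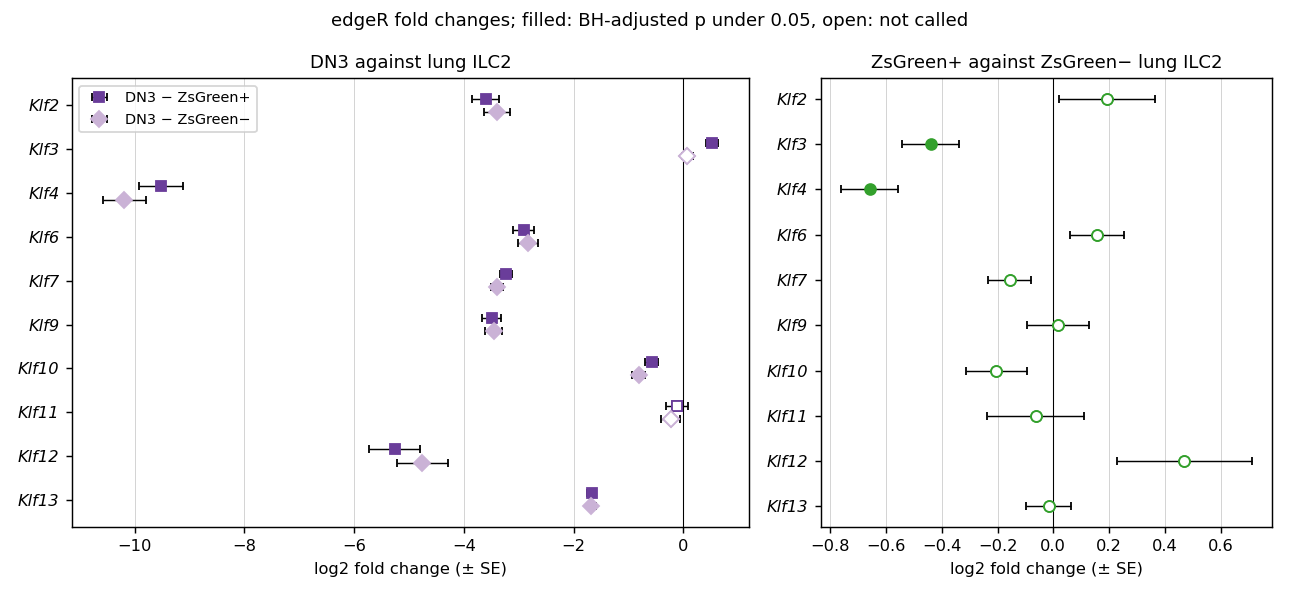
Points give log2 fold changes with SE bars on the x axis for each gene on the y axis, DN3 minus ZsGreen+ (squares) and DN3 minus ZsGreen− (diamonds) at the left and ZsGreen+ minus ZsGreen− at the right on a narrower scale, filled where the BH-adjusted p was under 0.05. Klf4 lies at -9.52 and -10.19 at the left, Klf3 and Klf11 lie nearest to 0, and at the right only Klf3, at -0.44, and Klf4, at -0.66, are filled.

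Counting rests on the gene annotation the authors used. In GENCODE M21, the spans of Klf3, Klf7, Klf12 and Klf13, introns included, overlap a gene on the opposite strand. Whether counting used the strand is not given in the sources used here. Gm26649, over Klf7, has no entry among the counts, so its level is unknown. The mean levels of the other overlapping genes were low. The highest in any group was that of Gm20033, over Klf3, at 7.10 CPM in DN3. It was at 1.10 CPM in ZsGreen-positive ILC2 and 1.11 CPM in ZsGreen-negative ILC2. Read assignment between each pair is uncertain.

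Within the lung, ZsGreen-positive ILC2 had less Klf4 and less Klf3 than ZsGreen-negative ILC2, and the other 8 members did not pass the test. The fit took the 8 lung libraries, with a term for batch, and tested 13771 genes, of which edgeR called 4.52%, 2.35% higher and 2.18% lower in ZsGreen-positive ILC2. Of the 10 members 2 were called lower, and none was called higher (0 at an unadjusted p under 0.05, 0 with DESeq2 and 0 with limma voom). The members' median log2 fold change was -0.04, beside -0.00058 over all genes. From the levels given above, the ZsGreen-positive libraries had 401.6 to 529.8 CPM of Klf4 and the ZsGreen-negative ones 664.6 to 784.0 CPM, a log2 fold change of -0.66 ± 0.10, or 1.58-fold lower (edgeR, adjusted p = 0.000715). For Klf3, 107.2 to 145.9 CPM in ZsGreen-positive stood against 150.7 to 189.2 CPM in ZsGreen-negative libraries, a log2 fold change of -0.44 ± 0.10, or 1.36-fold lower (edgeR, adjusted p = 0.0178).

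Libraries of both groups were separate for 3 members, Klf3, Klf4 and Klf7, as they were for 10.2% of all tested genes. Klf7 had 138.3 to 160.6 CPM in ZsGreen-positive and 164.2 to 181.0 CPM in ZsGreen-negative libraries, with a difference of -0.16 ± 0.08 (edgeR, adjusted p = 0.327). Klf12 had the largest positive difference, 0.47 ± 0.24 (adjusted p = 0.350), at 5.65 to 7.22 CPM in ZsGreen-positive and 3.17 to 6.42 CPM in ZsGreen-negative libraries, which overlapped. Klf10 differed by -0.20 ± 0.11 (edgeR, adjusted p = 0.368), Klf2 by 0.19 ± 0.17 (0.674) and Klf6 by 0.16 ± 0.10 (0.471). The estimates for Klf9, Klf11 and Klf13 lay between -0.06 and 0.02 with SE of 0.08 to 0.17, and their adjusted p between 0.923 and 0.969. The sign of Klf2, Klf6, Klf9, Klf11 and Klf13 changed under at least 1 alternative processing.

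The 2 falls did not rest equally on the batches. In the libraries of September 2024 alone, 2 ZsGreen-positive and 4 ZsGreen-negative, Klf4 differed by -0.55 (edgeR, adjusted p = 0.00841) and Klf3 by -0.30 (adjusted p = 0.181). The batch of April 2025 holds 1 library of each group, with 401.6 CPM of Klf4 in ZsGreen-positive and 784.0 CPM in ZsGreen-negative ILC2, and 107.2 and 185.3 CPM of Klf3. The Klf3 call was lost without ZsGreen-negative replicate 1 (adjusted p = 0.0503), ZsGreen-negative replicate 5 (0.185) or ZsGreen-positive replicate 3 (0.179), where the difference was -0.43, -0.30 and -0.30. Klf4 was called in each of the 8 leave-one-out fits, with differences of -0.79 to -0.54. Over all 19 alternatives the adjusted p lay between 9.34e-11 and 0.121 for Klf4 and between 0.000188 and 0.543 for Klf3.

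Some markers of lung structural cells and some immediate early genes also differed between the ZsGreen groups. Of 16 endothelial markers 5 rose in ZsGreen-positive ILC2, with a median log2 fold change of 1.22, of 13 tested epithelial markers 1 rose (median 1.39) and of 9 tested stromal markers 1 rose (median 1.09), where 2.35% of all tested genes rose. At an unadjusted p under 0.05 in edgeR, 11, 10 and 3 of these markers rose and 1 endothelial marker fell. DESeq2 called 7, 6 and 3 higher, and 388 of all genes. With limma voom 9, 5 and 3 were higher, and 450 of all genes. With the structural marker score of each library, its mean log2(CPM + 1) over the 3 lists, as a further term, Klf4 differed by -0.60 (edgeR, adjusted p = 0.104) and Klf3 by -0.39 (0.543). With an immediate early score made the same way as the term, Klf4 differed by -0.56 (edgeR, adjusted p = 0.121) and Klf3 by -0.48 (0.267). Neither factor was called in these fits, in which 67 and 72 genes of all tested were called against 623 without a score.

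**Figure D4:**
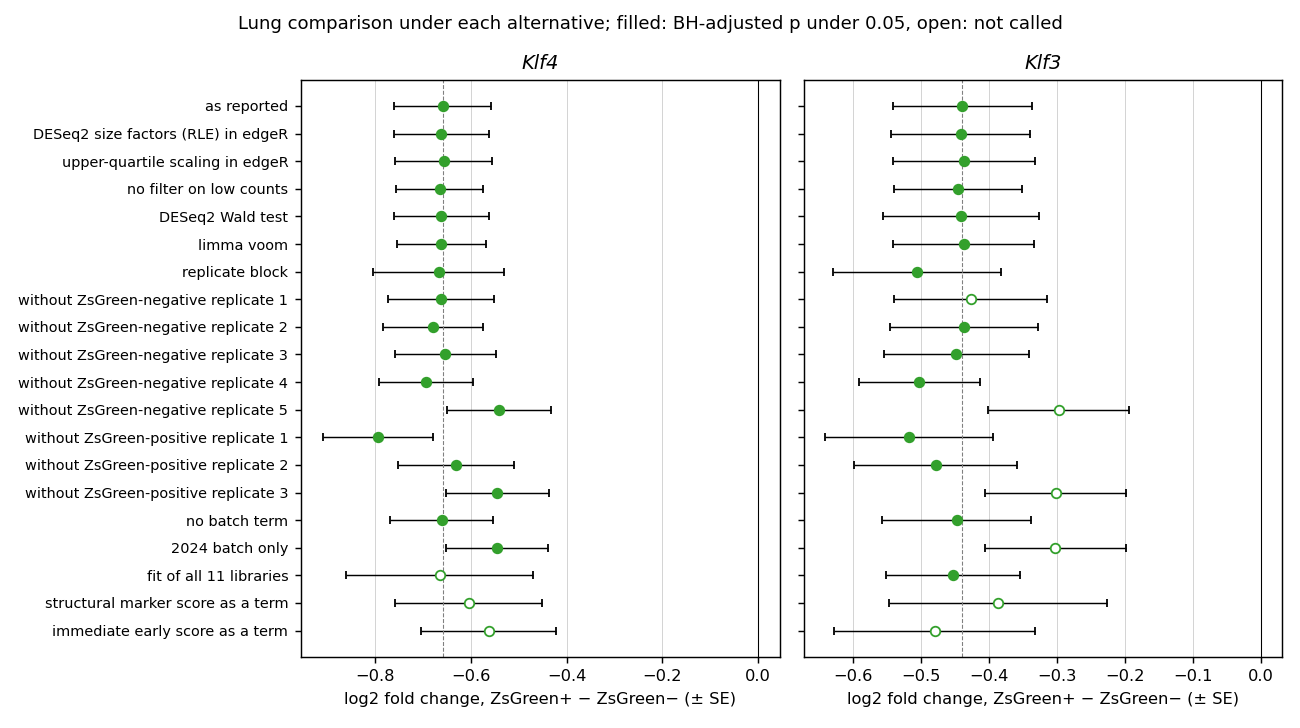
Points give the log2 fold change of Klf4 (left) and Klf3 (right) in ZsGreen+ minus ZsGreen− lung ILC2 with SE bars on the x axis, for the reported fit and each alternative on the y axis, filled where the BH-adjusted p was under 0.05. Every estimate lies below 0, between -0.79 and -0.54 for Klf4 and between -0.52 and -0.30 for Klf3, with 3 open points for Klf4 and 6 for Klf3.

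Relatives outside the 10 gave a mixed picture. Klf5, an activator close to Klf4 in sequence and often opposed to it in epithelia, had 83.8, 66.7 and 70.9 CPM in ZsGreen-positive and 108.5, 110.6, 104.5, 93.4 and 112.1 CPM in ZsGreen-negative ILC2, a log2 fold change of -0.52 ± 0.10 (edgeR, adjusted p = 0.00318), and 1 count in all DN3 libraries together. It was the only one of 7 tested genes of the other Klf and Sp family called within the lung, and neither score term left it called. In DN3 against ZsGreen-negative ILC2, Sp1, Sp3 and Klf16 rose and Klf5, Klf8, Sp2 and Sp4 fell, so that all 7 were called where 76.7% of all tested genes were. Sp1, the ubiquitous activator at GC boxes, had 188.6, 179.5 and 190.3 CPM in DN3, 123.5, 114.2 and 102.2 CPM in ZsGreen-positive ILC2 and 125.9, 124.4, 104.3, 100.7 and 115.0 CPM in ZsGreen-negative ILC2, and rose in DN3 by 0.71 ± 0.09 and 0.72 ± 0.10 against ZsGreen-negative and ZsGreen-positive ILC2 (edgeR, adjusted p = 2.03e-07 and 1.02e-06). Sp3 rose by 0.58 ± 0.11 and 0.63 ± 0.12 in the same comparisons. Klf16 passed only against ZsGreen-negative ILC2 (0.39 ± 0.12), its difference from ZsGreen-positive ILC2 being 0.28 ± 0.13 (edgeR, adjusted p = 0.0609). Klf8, the third CtBP-binding factor, was at 4 counts in DN3 altogether, 22.2 times below ZsGreen-negative ILC2 in pooled counts (95% counting interval 8.47 to 82.8). Klf14, Klf17 and Klf18 were at 0 counts in all 11 libraries, and Klf1 and Klf15 were too low to be tested.

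Of 12 corepressors and coactivators of these factors, 6 rose and 4 fell in DN3 against ZsGreen-negative ILC2, with a median of 0.16, and the counts were the same against ZsGreen-positive ILC2, with a median of 0.14. Over all tested genes 76.7% and 75.1% were called in these comparisons, so the number called is near that of any genes. Hdac2, a deacetylase of the Sin3 complex, rose by 1.13 ± 0.07 and Kat2a, an acetyltransferase, by 1.21 ± 0.08 in DN3 against ZsGreen-negative ILC2, whereas the coactivators Crebbp and Kat2b fell, with log2 fold changes of -1.36 ± 0.10 and -0.80 ± 0.09 (edgeR, adjusted p at most 3.26e-08). Ctbp2, a corepressor of Klf3 and Klf12, was the 1 gene of the list called within the lung. It had 9.71, 8.87 and 8.71 CPM in ZsGreen-positive ILC2, above all ZsGreen-negative libraries at 6.73, 4.65, 5.604, 4.47 and 4.65 CPM, a rise of 0.83 ± 0.21 (edgeR, adjusted p = 0.0298). That call was lost under 10 of 19 alternatives. In DN3, Ctbp2 was at 0.47 to 0.99 CPM.

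Among genes upstream of Klf2 and Klf4, Foxo1, the forkhead factor that activates Klf2 in T cells, had 17.3, 18.8 and 16.1 CPM in DN3, 71.9, 64.9 and 57.6 CPM in ZsGreen-positive ILC2 and 79.4, 92.7, 86.7, 77.3 and 72.8 CPM in ZsGreen-negative ILC2. It fell in DN3, with log2 fold changes of -2.22 ± 0.11 against ZsGreen-negative and -1.89 ± 0.12 against ZsGreen-positive ILC2 (edgeR, adjusted p = 6.65e-14 and 4.60e-12). Of the 10 upstream genes, 3 rose and 4 fell in DN3 against ZsGreen-negative ILC2, Mef2a and the ubiquitin ligase Smurf1 among those that fell and Mef2c among those that rose. Against ZsGreen-positive ILC2, 4 rose and 3 fell. These counts are near the shares over all tested genes, 35.5% higher and 41.2% lower against ZsGreen-negative and 34.8% higher and 40.3% lower against ZsGreen-positive ILC2.

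Homing and egress genes linked to Klf2 were mostly lower in DN3. S1pr1, the sphingosine phosphate receptor for exit from the thymus, had 0, 0.32 and 0 CPM in DN3, 14.1, 16.5 and 19.6 CPM in ZsGreen-positive ILC2 and 18.6, 17.7, 23.9, 22.8 and 13.6 CPM in ZsGreen-negative ILC2. Its DN3 level rests on 3 counts, 148.6 times below ZsGreen-negative ILC2 in pooled counts (95% counting interval 50.6 to 722.7). In all, 5 of 6 tested genes fell in either DN3 comparison, with medians of -4.45 against ZsGreen-negative and -4.47 against ZsGreen-positive ILC2, beside 41.2% and 40.3% of all tested genes that fell. Against ZsGreen-negative ILC2, the log2 fold change was -8.30 ± 0.19 for the integrin Itgb7, -5.61 ± 0.21 for the early activation antigen Cd69, which opposes S1pr1 at the membrane, and -2.53 ± 0.13 for S1pr4.

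Of 8 quiescence genes and cell cycle brakes, 6 fell in DN3 in both comparisons, with medians of -1.99 against ZsGreen-negative and -2.05 against ZsGreen-positive ILC2, and Foxp1 and Tsc1 did not pass. Of all tested genes 41.2% and 40.3% fell in these comparisons and 76.7% and 75.1% were called in either direction, and the share called in either direction was similar in the list. Btg1, an antiproliferative factor, was at 71.2 to 78.3 CPM in DN3, 1895 to 2150 CPM in ZsGreen-positive ILC2 and 2031 to 2204 CPM in ZsGreen-negative ILC2. Cdkn1a, the kinase inhibitor p21 and a known Klf4 target, was at 38.2 to 41.9 CPM in DN3, 432.5 to 509.7 CPM in ZsGreen-positive ILC2 and 447.7 to 519.5 CPM in ZsGreen-negative ILC2. DN3 lay below all lung libraries for both, and the log2 fold change was -3.60 ± 0.10 for Cdkn1a and -4.83 ± 0.11 for Btg1 against ZsGreen-negative ILC2 (edgeR, adjusted p = 1.63e-18 and 4.31e-20).

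In the TGF-beta pathway, which induces Klf10 and Klf11, 9 of 10 genes fell in DN3 and 1 rose, with medians of -2.21 against ZsGreen-negative and -2.14 against ZsGreen-positive ILC2. Over all tested genes 41.2% and 40.3% fell and 76.7% and 75.1% were called in either direction. The receptors went apart. Tgfbr2, the ligand-binding chain, was at 26.9 to 29.1 CPM in DN3, 454.5 to 481.4 CPM in ZsGreen-positive ILC2 and 427.8 to 487.2 CPM in ZsGreen-negative ILC2, while Tgfbr1, the signalling chain, was at 135.2 to 147.2 CPM in DN3, 27.7 to 34.8 CPM in ZsGreen-positive ILC2 and 32.2 to 35.6 CPM in ZsGreen-negative ILC2. The inhibitors Skil, Smad7 and Ski fell in DN3 against ZsGreen-negative ILC2, with log2 fold changes of -5.29 ± 0.15, -3.90 ± 0.12 and -3.02 ± 0.09. Within the lung, Smad7 was the 1 gene called, at 132.6, 130.5 and 140.1 CPM in ZsGreen-positive and 152.7, 145.3, 187.1, 158.6 and 188.6 CPM in ZsGreen-negative ILC2 (-0.33 ± 0.09, edgeR, adjusted p = 0.0476), a call lost under 13 of 19 alternatives.

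Of 6 glucocorticoid response genes, listed for Klf9, 5 fell and 1 rose in DN3, with medians of -1.44 against ZsGreen-negative and -1.30 against ZsGreen-positive ILC2, where 41.2% and 40.3% of all tested genes fell and 76.7% and 75.1% were called. Against ZsGreen-negative ILC2, the log2 fold change was -5.64 ± 0.17 for the kinase Sgk1, -4.66 ± 0.18 for the clock gene Per1 and -1.62 ± 0.11 for Tsc22d3, the GILZ protein. Fkbp5, the cochaperone that tracks receptor activity in many cells, was at 964.9 to 1019 CPM in DN3, 153.0 to 162.8 CPM in ZsGreen-positive ILC2 and 111.1 to 172.9 CPM in ZsGreen-negative ILC2, a rise of 2.76 ± 0.12 against ZsGreen-negative ILC2 (edgeR, adjusted p = 7.12e-14).

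Immediate early and dissociation genes fell almost as a block in DN3, 21 of 22 against either lung group, with medians of -7.49 against ZsGreen-negative and -7.18 against ZsGreen-positive ILC2, beside 41.2% and 40.3% of all tested genes that fell. The exception was Dusp2, a phosphatase, which rose by 1.51 ± 0.12 and 1.37 ± 0.14. Fosl2, an AP-1 subunit, was at 0.935 to 1.94 CPM in DN3, 4194 to 4392 CPM in ZsGreen-positive ILC2 and 4131 to 5239 CPM in ZsGreen-negative ILC2. Within the lung, Zfp36 (-0.52 ± 0.09), Atf3 (-0.45 ± 0.09) and Fosb (-0.43 ± 0.10) fell in ZsGreen-positive ILC2 and Egr2 rose (0.53 ± 0.12), with a median over the list of -0.17. Of all tested genes 2.18% fell and 2.35% rose in that comparison. The calls of Zfp36, Atf3, Fosb and Egr2 were lost under 5, 4, 11 and 9 of 19 alternatives. The upstream, homing, glucocorticoid and quiescence lists, 30 tested genes together, had 0 genes called within the lung by edgeR, with 6 at an unadjusted p under 0.05, 0 by DESeq2 and 1 by limma voom.

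For each member the genes of most similar pattern were sought over the 11 libraries among 11972 genes, by the root mean square (RMS) difference of centred log2 CPM with a prior count of 2. Nearest to Klf4 were Fos, Ptgs2, the inducible prostaglandin synthase, and Rgs1, a regulator of G protein signalling, at 0.39, 0.54 and 0.65. Fos averaged 2.53 ± 3.79 CPM in DN3, 946.2 ± 174.0 CPM in ZsGreen-positive ILC2 and 1088 ± 162.0 CPM in ZsGreen-negative ILC2, and like Klf4 had its highest DN3 value in replicate 1. Klf7 lay nearest to Gclc, Btg2 and Sidt1 at 0.092 to 0.107, and Klf9 nearest to Ppp1r3f, Bmp7 and Il7r, the IL-7 receptor, at 0.099 to 0.152. Klf13 had the closest neighbour of the 10, Tprg1l at 0.060, followed by Tspan14 and Lrp10. Klf3 lay near Macir and Top2b, at 0.117 and 0.126, Klf10 to Stt3b, Stam2 and Mob1a, Klf11 to Kbtbd2, Spata6 and Rac1, Klf2 to Polm, Kcnk6 and Cebpd, Klf6 to Ap3m2, Xlr4b and St8sia4, and Klf12 to Ddr1, Smpd5 and Cass4. The distances are descriptions over libraries in which the cell type, the tissue and the batch of DN3 and lung cells cannot be told apart.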

How the data were processed

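Per the labels' protocols, RNA for bulk sequencing was prepared with a PicoPure kit and turned into libraries with a Watchmaker mRNA kit. The values are whole-number counts per gene in a table the authors deposited for 11 libraries. GRCm39 and DESeq2 are named in the submitters' processing notes. Not given in the sources used here are the aligner, the counter, the annotation and the use of strand. Groups follow the labels. The labels do not tie replicates to separate animals, and the spread behind each p-value may therefore be technical. Each of the 16 replicate pairs differed by more than sampling noise, with a chi-square of 1.77 to 15.3 per degree of freedom.

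The test was the quasi-likelihood one of edgeR 4.0.16, run in R 4.3.3 (TMM, robust, filterByExpr with a minimum count of 10), with BH adjustment at 0.05. The ZsGreen comparison used 8 lung libraries with batch as a term (13771 genes), and DN3 comparisons used all 11 without one (15132 genes). SE is the log2 fold change over the square root of F. Counting intervals are 95% intervals on pooled counts and cover counting error only. Alternatives were other scalings, no filter, DESeq2 1.42.0, limma 3.58.1 voom, a replicate block, each library left out, other batch handling, and a structural or immediate early score as a term. Lengths come from GENCODE M21 and promoters from RefSeq, both on GRCm38, matched by identifier or symbol; Klf10 had no promoter entry.

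Members and gene lists were chosen with earlier results of these data known. All members were named; from each list, up to 4 called genes of smallest p per comparison; and for each member the 3 genes nearest in pattern, without unnamed gene models. Some genes that this rule takes are not reported here. S1pr1, Klf16, Sp2, Sp4, Tgfbr1, Dusp2, Foxp1, Tsc1 and Gm20033 were named after their values were seen.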

Additional observations from a re-analysis of the deposited data

Results flagged for a closer look

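Of 49 genes examined over the 5 ZsGreen-negative libraries for a library far from the others, 3 stood out, where chance would flag about 1 in 20. ZsGreen-negative replicate 4 had 150.7 CPM of Klf3, below the other 4 libraries at 180.1 to 189.2 CPM, with a gap of 0.762 of the group's range (critical value 0.71). It was still above every ZsGreen-positive library, and without it the fall of Klf3 in ZsGreen-positive ILC2 was still called, with a log2 fold change of -0.50 ± 0.09. ZsGreen-negative replicate 5, the library of April 2025, was highest for Ski, a TGF-beta inhibitor, at 385.7 CPM against 334.6 to 349.3 CPM in the others, and for Zfp36, an immediate early gene that destabilises messenger RNA, at 1542 CPM against 1018 to 1142 CPM.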

How the results depend on the processing

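In DN3, the counts of members called (8 against ZsGreen-negative, 9 against ZsGreen-positive ILC2) were the same under all 15 and 13 alternatives, and no member changed sign. The replicate block among them joined DN3 and lung libraries by number only, so it is no check on pairing. Upper-quartile scaling shifted the median of all genes by 0.105 against ZsGreen-negative ILC2.

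Within the lung, edgeR called 623 genes (323 higher, 300 lower). It called 1081 without the filter, 298 in the 2024 batch alone, 67 with the structural and 72 with the immediate early score, and 286 to 751 with 1 library left out (286, 321 and 302 without ZsGreen-negative replicate 5, ZsGreen-positive replicate 2 or ZsGreen-positive replicate 3). Of the 2 members, Klf4 alone remained in the 2024 batch (1) and Klf3 alone in the fit of all 11 libraries (1, Klf4 adjusted p = 0.0839), 0 remained with either score, and 1 to 2 with a library left out. Dropping either April 2025 library leaves the comparison to the 2024 libraries; other causes were not tested.

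Same-numbered libraries showed little shared deviation from their group means (correlations -0.09 to 0.073 over 9 pairs). Other pairings of libraries were not examined. With the replicate block 233 lung genes and the same 2 members were called (edgeR, Klf4 adjusted p = 0.0142, Klf3 0.0445), and Klf6 changed to -0.0778. That fit had no batch term. Its replicate 3 set a ZsGreen-positive library of April 2025 against a ZsGreen-negative one of September 2024. ZsGreen-negative replicates 4 and 5 had no ZsGreen-positive partner and added nothing to the difference. It is therefore no check on pairing or batch within the lung.

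Uncalled members changed sign as follows. Klf2 was -0.0723 in the 2024 batch, -0.218 with the structural score and -0.0719 to 0.317 with a library left out. Klf9 was -0.0045 with voom, -0.0135 with the structural score and -0.0677 to 0.124 with a library left out. With a library left out, Klf11 ranged from -0.123 to 0.0013 and Klf13 from -0.0502 to 0.0257. Depth limits Klf4 and Klf12 in DN3, at 15 and 4 counts in all.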
